A study of Mus musculus with 21 samples.

Results

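The comparison described here is that of Phf6 knockout (KO) with wild-type (WT) multipotent progenitors of the MPP3 class, 4 KO against 4 WT RNA-seq libraries out of 21 libraries in all. The members were taken by genotype and cell type from the sample labels, and no measured value was used to choose them. The mice were of strain C57BL/6 and 12 weeks old, and the cells were sorted from bone marrow, 100 to 200 cells per library. The sources used here do not give the KO allele, the cells in which it acts or the breeding. The remaining 13 libraries hold MPP2 and long-term haematopoietic stem cells (LT-HSC) of the same 2 genotypes. Libraries are named by genotype and number, so KO 2 is the KO MPP3 library labelled replicate 2. According to the design text 4 pairs of mice were used, but the labels tie no library to a mouse. MPP3, MPP2 and LT-HSC libraries may come from the same mice, while the main fit treats all 21 libraries as independent. P-values therefore measure only the spread between these libraries.

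PHF6 is a chromatin-bound nuclear and nucleolar protein with a pair of extended PHD zinc fingers, encoded on the X chromosome. It has been found with the NuRD remodelling complex, with the PAF1 elongation complex and at ribosomal DNA, and it is recurrently mutated in T-cell acute lymphoblastic leukaemia and in myeloid neoplasms. As a class, MPP3 cells stand downstream of the stem cell, divide actively and mainly feed the granulocyte and monocyte lineages. The MPP3 name used here is that of the sample labels. The question of the comparison is which transcripts differ in these progenitors when Phf6 is lost.

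The gate used CD48, CD150, cKit and Sca-1 besides a cocktail of lineage antigens, and the transcripts of these surface proteins were checked first. Slamf1, which encodes CD150, ran from 0 to 1.99 CPM (read counts per library size after TMM scaling) in the 8 MPP3 libraries, against 9.18 to 80.1 CPM in WT MPP2. Cd48 ran from 206 to 670 CPM, Kit from 134 to 509 CPM and Ly6a, which encodes Sca-1, from 48.2 to 700.3 CPM. Flt3 was not among the antigens stained and was abundant, with 923, 1161, 1017 and 1262 CPM in WT 1 to 4, so the gate did not separate Flt3-expressing progenitors from the rest. Dntt, chosen after its values were seen, ran from 885 to 1434 CPM in WT MPP3 and from 559 to 1145 CPM in KO MPP3. In WT MPP2 it ran from 0 to 917 CPM and in WT LT-HSC from 0 to 1.58 CPM. The share of lymphoid-primed cells in the MPP3 libraries was not tested.

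Total counts ran from 18892723 to 29924111 with a median of 26099108, and 3 counts stood for 0.104 to 0.171 CPM. Several libraries stood apart. In KO 1, 26.8% of counts fell on immunoglobulin genes, against 0.0560% to 0.0867% in the other 7 libraries, and the plasma cell transcript Jchain stood at 12788 CPM there and at most 2.35 CPM elsewhere. In KO 2, 21.2% of counts fell on ribosomal RNA genes, nuclear and mitochondrial, against 0.849% to 2.76% elsewhere. Its voom quality weight was 0.208 against 0.982 to 1.87. WT 1 carried the 17 neutrophil markers at a summed 2013 CPM, against 74.0 to 172 CPM elsewhere. KO 3 carried the 12 erythroid markers found in the count table at 113 CPM against 22.6 to 74.5 CPM. Markers of other cells summed to 617 to 874 CPM for B cells (265912 in KO 1), 242 to 633 CPM for T and NK cells, 43.3 to 123 CPM for macrophages and dendritic cells and 120 to 345 CPM for mast cells and basophils. Xist stood at 79 counts in WT 2 and 1 count in KO 2, against 3642 to 10170 in the other 6, so both libraries numbered 2 were male by this gene. Sample numbers in the titles split the set into libraries 1 and 2 (52 to 62) and libraries 3 and 4 (162 to 210), 2 WT and 2 KO libraries in each. Values within these sets are therefore given beside the pooled ones. Some are also given without the 3 libraries rich in immunoglobulin or ribosomal RNA (KO 1, KO 2 and 1 KO MPP2 library), a choice made after the data were seen. That leaves KO 3 and KO 4 against 4 WT libraries. Both KO libraries then come from the set numbered 162 to 210 and the WT libraries from both sets, so genotype and set are partly mixed. The median log2 fold change over all genes was -0.0985 in that setting.

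**Figure D1:**
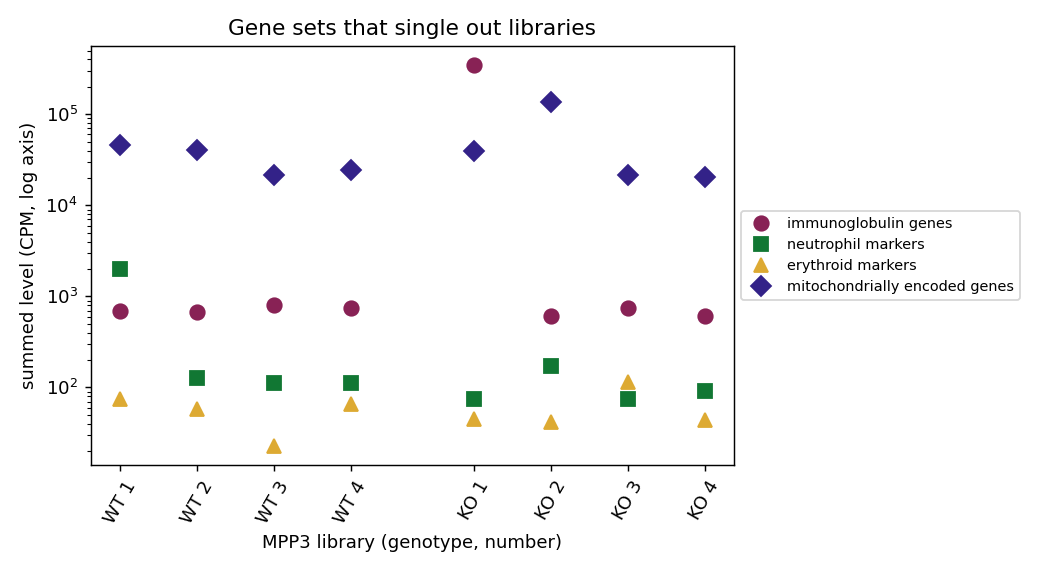
Summed level in CPM (log axis) of 4 gene sets in each of the 8 MPP3 libraries, 1 point per library and set. Immunoglobulin genes stand at 347975 CPM in KO 1 and at 614 to 801 CPM elsewhere, neutrophil markers peak in WT 1, erythroid markers in KO 3 and mitochondrially encoded transcripts in KO 2.

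Phf6 itself fell in KO MPP3. The gene (ENSMUSG00000025626.16, chromosome X, 52912266 to 52956943, plus strand, mm10) had 4697, 4082, 1545 and 3737 counts in WT 1 to 4 and 187, 43, 350 and 375 counts in KO 1 to 4. As levels these were 191, 143, 54.4 and 135 CPM in WT and 8.12, 2.45, 12.1 and 13.3 CPM in KO. All KO libraries lay below all WT libraries, WT 3 was the lowest WT library, and KO 2 was the lowest of all. The means were 131 ± 56.8 CPM in WT and 9.01 ± 4.91 CPM in KO (SD, n = 4 each), a log2 fold change of -3.86 ± 0.49 (SE) with an edgeR adjusted p of 0.00376. An exact two-sided permutation test gave p = 0.0286, the smallest that 4 against 4 libraries allow. With libraries exchanged only within their number the exact permutation p was 0.125, the smallest that 4 pairs allow. Ratios between libraries of the same number varied, with log2 values of -4.55, -5.82, -2.16 and -3.33 for numbers 1 to 4. The call was lost within numbers 3 and 4 (edgeR adjusted p = 0.703, log2 fold change -2.88), without KO 1 (0.0524), without the immunoglobulin- and rRNA-rich libraries (0.170) and with only the 8 MPP3 libraries fitted (0.252).

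Transcripts of the genes around Phf6 were also counted. Hprt, the purine salvage enzyme gene that lies next to it, had 54577 counts over the 4 WT and 50792 over the 4 KO libraries. Fam122b had 1533 and 1753 counts, Gpc3 had 330 and 249, and Ccdc160, the nearest gene upstream, was at 0 in KO and at 19 counts in WT, of which a single library gave 17. Gpc4, Plac1, Fam122c and 1700080O16Rik had at most 3 counts in any genotype. None of the 5 neighbours tested, Hprt, Fam122b, Gpc3, Ccdc160 and Gpc4, passed the edgeR threshold.

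The gene that rose in KO MPP3 by edgeR's test over all 21 libraries was Sva, seminal vesicle antigen (ENSMUSG00000023289.11, chromosome 6, 42038394 to 42042851, plus strand, mm10), which encodes a secreted protein of seminal plasma. It had 1, 1, 0 and 0 counts in WT 1 to 4 and 132, 185, 148 and 115 counts in KO 1 to 4. In CPM the KO levels were 5.73, 10.5, 5.13 and 4.09, so each KO library carried the transcript at a low level and the WT libraries were at or below 1 count. The pooled counts, 580 against 2, gave a ratio of 324 (exact 95% interval 89.4 to 2686, counting error only). The fitted log2 fold change was 8.10 ± 1.09 (edgeR adjusted p = 0.0208), a size that depends on the prior count, and the exact two-sided permutation p was 0.0286, or 0.125 within numbers, again the smallest possible in each case. Sva was known from earlier results of these data, so this p adds nothing independent. The edgeR call was lost without both libraries numbered 2 (adjusted p = 0.369), within numbers 1 and 2 (0.944), within numbers 3 and 4 (1), without the immunoglobulin- and rRNA-rich libraries (0.170) and without any 1 library other than KO 4 (0.0515 to 0.138). KO LT-HSC held Sva at 1.43 to 9.81 CPM and KO MPP2 at 0.904 to 7.28 CPM, while all WT libraries of both populations were at 0 counts.

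Other genes of the Sva family and neighbourhood were mostly near 0 counts in both genotypes. The related genes Pip, Sval1, Sval2 and Sval3, which lie upstream of Sva on the same strand, had at most 5 counts over either genotype, and the taste receptor genes Tas2r139 and Tas2r144 downstream had at most 2. Gstk1, a mitochondrial and peroxisomal glutathione transferase gene further downstream, was expressed in both genotypes with 2367 counts in WT and 1589 in KO. Tmem139 had 17 counts in WT and 38 in KO, each nearly all from 1 library. The 250 bases before the Sva start (RefSeq, GRCm38.p6, chr6:42038144-42038393, plus strand) are shown because Sva was the gene called higher in that edgeR fit. They hold 0 CG dinucleotides, as do 7.87% of the 32851 promoter windows of this length, whose median is 6, and 37.6% G and C.
Sva promoter: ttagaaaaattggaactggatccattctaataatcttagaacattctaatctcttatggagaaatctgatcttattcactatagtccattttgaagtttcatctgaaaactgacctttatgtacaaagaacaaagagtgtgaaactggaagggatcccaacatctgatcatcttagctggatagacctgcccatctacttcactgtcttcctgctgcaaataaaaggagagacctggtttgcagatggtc

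**Figure D2:**
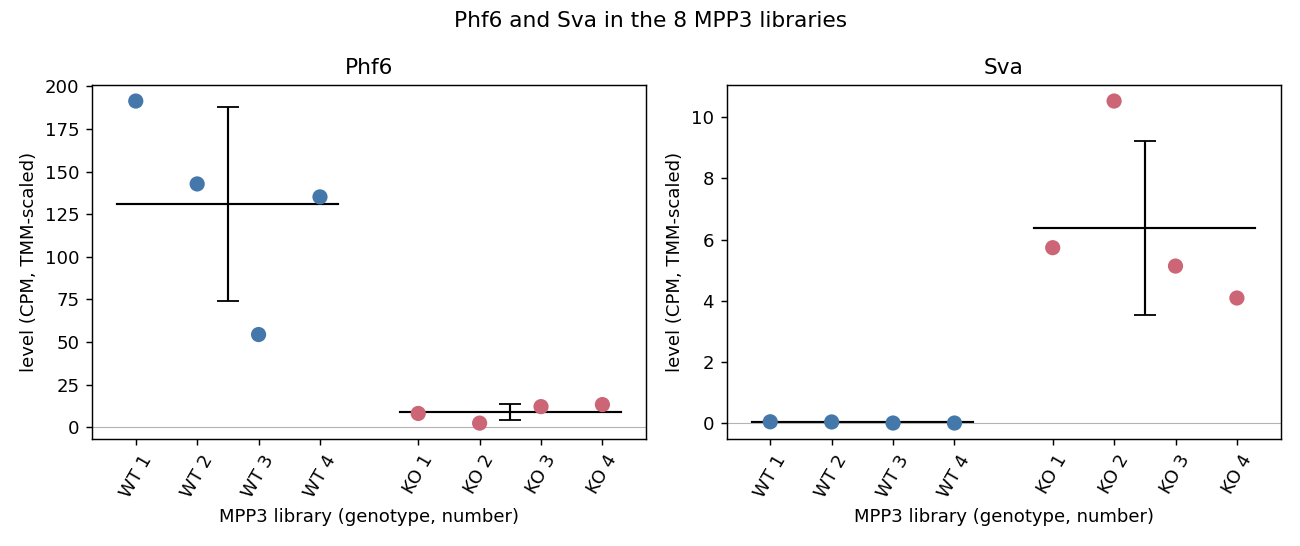
Level in CPM (linear axis) of Phf6 and Sva in each MPP3 library, with the mean (horizontal line) and SD (bar) of each genotype, n = 4. Every KO library lies below every WT library for Phf6 and above every WT library for Sva.

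Across all expressed genes, 2 of 21100 passed the edgeR threshold of 0.05 (0.00948%), Sva higher (0.00474%) and Phf6 lower (0.00474%). At an unadjusted p under 0.05 there were 1185 genes (5.62%), 630 higher (2.99%) and 555 lower (2.63%) in KO. All 4 KO libraries lay above all 4 WT libraries for 226 genes (1.07%) and below them for 342 (1.62%), 2.69% of genes in both directions. Fold changes were spread evenly around 0, with 10645 genes above and 10353 below, a median log2 value of 0.0046 and quartiles at -0.34 and 0.34. TMM scaling brings most genes to a common centre, so this balance is largely set by the scaling. Other tools called more genes, 36 by DESeq2 (25 higher, 11 lower) and 7 by limma voom with quality weights (1 higher, 6 lower), each including Phf6 and Sva. Of the DESeq2 calls, 9 were immunoglobulin genes or Jchain, and the erythroid genes Rhd and Rhag were 2 more. Trpm1, Wdr86 and Vwa3a were among the lower genes called by limma voom.

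**Figure D3:**
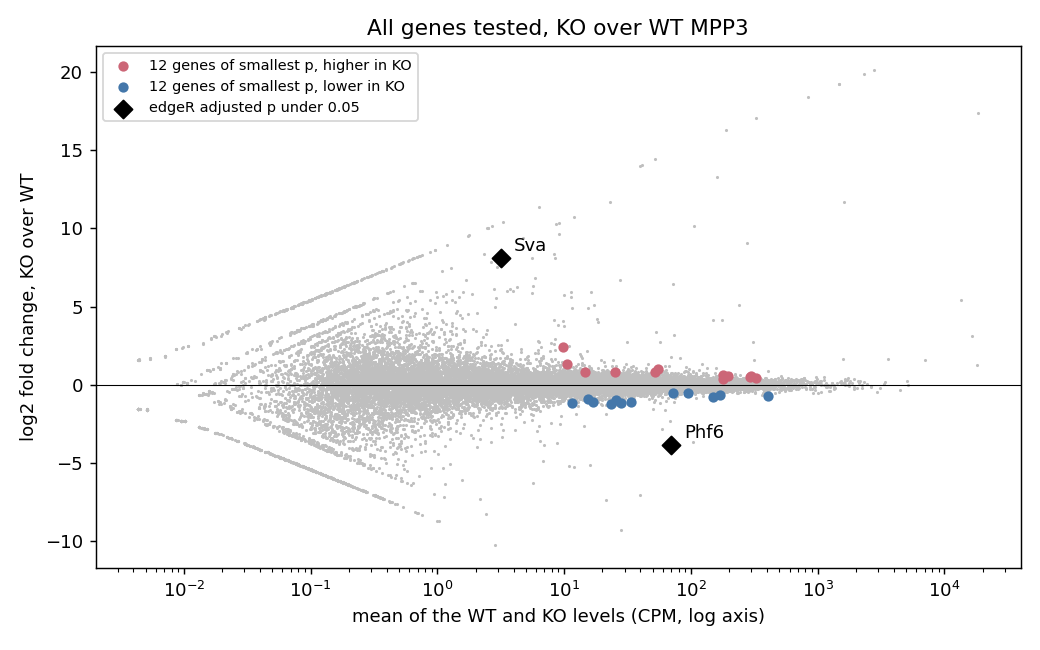
Log2 fold change of KO over WT MPP3 for the 21100 genes tested against the mean of the 2 genotype levels in CPM (log axis), 1 point per gene. Black diamonds are the 2 genes past the edgeR threshold, red and blue points the 12 higher and 12 lower genes of smallest p with no overlap between genotypes.

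The 24 genes of smallest p with no overlap between genotypes and at least 10 CPM in the higher group, 12 in each direction, are described next. None passed the edgeR test (p from 0.000697 to 0.00538, adjusted p = 0.880 for each), so their values describe these 8 libraries. DESeq2 called 2 of them, Slc6a15 (adjusted p = 0.0442) and Muc13 (adjusted p = 0.0451). Cox7a2, a subunit of cytochrome c oxidase, stood at 216, 241, 271 and 225 CPM in WT and 318, 396, 345 and 355 CPM in KO (log2 fold change 0.57 ± 0.14). The highest WT library, WT 3, was below the lowest KO library, KO 1. Uqcrq of complex III had a log2 fold change of 0.61 ± 0.17, Ndufb3 of complex I of 0.38 ± 0.11, Cox7b of complex IV of 0.43 ± 0.13, and Tomm7, part of the outer membrane import pore, of 0.46 ± 0.15.

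Incenp, the scaffold of the chromosomal passenger complex that steers Aurora B at the centromere, stood at 28.2, 48.3, 41.8 and 27.0 CPM in WT and 56.1, 84.9, 84.3 and 69.7 CPM in KO (log2 fold change 1.02 ± 0.26). Its same-number ratios were alike, with log2 values of 0.99, 0.81, 1.01 and 1.36. Cenpt, which anchors the kinetochore to the centromere, went from a mean of 18.2 ± 4.17 to 32.6 ± 10.1 CPM, and Arhgap19, a GTPase-activating protein, from 5.93 ± 1.17 to 15.1 ± 6.25 CPM. Mnd1, known from meiotic recombination, had 12.4, 9.02, 13.4 and 7.49 CPM in WT and 18.0, 17.2, 19.7 and 20.7 CPM in KO (log2 fold change 0.83 ± 0.24). Slc6a15, a transporter of neutral amino acids, had 1.47, 1.36, 8.95 and 0.326 CPM in WT and 18.1, 22.3, 14.2 and 11.1 CPM in KO. WT 3 was much the highest of the WT libraries, and without it Slc6a15 joined Phf6 past the edgeR threshold. The remaining higher genes were Erp29, a protein of the endoplasmic reticulum lumen (157 ± 21.8 to 232 ± 31.4 CPM), and Arrdc3, an arrestin-like adaptor of receptor traffic (37.8 ± 2.85 to 65.7 ± 8.60 CPM).

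Among the 12 lower genes, Muc13, a transmembrane mucin, stood at 220, 221, 175 and 219 CPM in WT and 130, 113, 116 and 166 CPM in KO (log2 fold change -0.67 ± 0.17), with WT 3 and KO 4 closest to each other. Cd63, a tetraspanin of late endosomes and granules, had 189, 200.1, 139 and 226 CPM in WT and 128, 71.9, 109 and 132 CPM in KO (log2 fold change -0.77 ± 0.19). S1pr1, the sphingosine-1-phosphate receptor that guides blood cells into the circulation, had 24.5, 19.1, 20.0 and 28.8 CPM in WT and 12.2, 12.3, 6.48 and 11.1 CPM in KO (log2 fold change -1.13 ± 0.32). S1pr1 was picked for having no overlap between its groups. Its log2 fold change was -0.85 within numbers 1 and 2 and -1.47 within numbers 3 and 4. Aqp9, a channel for water and glycerol, went from 38.7 ± 6.32 to 17.3 ± 3.18 CPM, and Lcp2, the adaptor SLP-76 of immune receptor signalling, from 113 ± 6.90 to 76.6 ± 7.80 CPM.

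Txnip binds thioredoxin and restrains glucose uptake. It had 499.7, 489.9, 421 and 591 CPM in WT and 357, 268, 265 and 338 CPM in KO (log2 fold change -0.70 ± 0.19). Its log2 fold change was -0.68 within numbers 1 and 2 and -0.73 within 3 and 4. The gap between its groups follows from the rule that picked it. Eya2, a transcriptional coactivator and phosphatase, had 42.8, 50.5, 35.4 and 54.7 CPM in WT and 25.5, 25.3, 8.70 and 24.3 CPM in KO (log2 fold change -1.13 ± 0.29). KO 3 was the low KO library for Eya2. Vhl, the recognition subunit of the ubiquitin ligase for hypoxia-inducible factors, went from 34.2 ± 6.97 to 17.1 ± 8.05 CPM, Mkrn1, a ubiquitin ligase, from 84.9 ± 13.6 to 59.4 ± 4.93 CPM, and Zfp951, a zinc finger gene, from 33.3 ± 11.3 to 14.0 ± 2.29 CPM. Galm, which interconverts the anomers of galactose, and Smim6 had log2 fold changes of -0.90 ± 0.29 and -1.16 ± 0.34.

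Gene lists are described by how many tested members lay higher and lower, by their median log2 fold change and by their summed level, with no test of the list. Sums cover all members found in the count table, tested or not. No member of any list other than Sva passed the edgeR test, and in the lists of mitosis, respiration, ribosomal proteins and interferon response limma voom and DESeq2 called 0 members as well. In sorted bulk samples a change in the share of a cell type and a change in RNA per cell cannot be told apart.

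Of 66 mitosis genes, 64 lay higher in KO. Their median log2 fold change was 0.54 against 0.0046 over all genes, and 20 of the higher members had an unadjusted p under 0.05, against 2.99% of all genes. The summed level was 3909, 5302, 5741 and 3356 CPM in WT and 6412, 4195, 8861 and 5819 CPM in KO. KO 1, KO 3 and KO 4 lay above every WT library and KO 2 below 2 of them, so the groups overlapped. Same-number medians were 0.82, -0.44, 0.61 and 0.92 for numbers 1 to 4. The list median was 0.19 within numbers 1 and 2, 0.72 within 3 and 4, 0.30 without KO 3, 0.67 without KO 2 and 0.74 without the immunoglobulin- and rRNA-rich libraries. After Incenp, the members of smallest p were Espl1, the separase that cuts cohesin (8.23 ± 3.83 CPM in WT, 19.5 ± 9.62 in KO), the spindle motor Kif15 (40.7 ± 6.88, 69.5 ± 17.1) and the kinetochore gene Cenph (49.2 ± 7.31, 71.5 ± 14.7). Mki67, chosen after its values were seen as the common marker of cycling cells, had 98.5, 127, 115 and 69.1 CPM in WT and 163, 211, 167 and 100.1 CPM in KO (edgeR adjusted p = 0.880). Incenp was the only member of this list with no overlap between genotypes. That is 1.52% of the list with all KO above all WT libraries, close to the 1.07% of all genes. Cenpt, described above, is not a member of the list.

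DNA replication genes stood closer to WT. Of 50, 41 lay higher and 9 lower, with a median of 0.15, and 1 had an unadjusted p under 0.05 and lay higher, against 2.99% of all genes. This was Uhrf1, which reads hemimethylated DNA (71.6 ± 17.2 CPM in WT, 106 ± 19.6 in KO). The median rested on single libraries, at 0.015 without KO 3 and 0.30 without WT 3, and was -0.014 within numbers 1 and 2 and 0.29 within 3 and 4. Mcm2 and Pcna, chosen after their values were seen, had log2 fold changes of -0.12 ± 0.33 and 0.08 ± 0.18. Among 25 cell cycle control genes, 20 lay higher with a median of 0.17 (0.31 within numbers 1 and 2, -0.033 within 3 and 4), and the activator E2f2 had the smallest p, with 1.84 to 3.22 CPM in WT and 4.51 CPM or more in KO (means 2.33 ± 0.627 and 7.44 ± 3.82, log2 fold change 1.67 ± 0.50, no overlap). Replication-dependent histones, whose mRNAs normally lack a poly(A) tail, lay higher for 49 of 55 with a median of 0.68. That value moved with the libraries. Same-number medians were 0.46, 1.26, 0.33 and 0.0078, KO 2 alone summed to 1190 CPM against 394 to 622 CPM in all others, and the median was 0.30 without KO 2 and 0.094 without the immunoglobulin- and rRNA-rich libraries. The part of the rRNA-rich library in the histone values was not tested beyond these numbers.

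Subunits of the respiratory chain lay higher for 70 of 76, with a median of 0.27. Of the higher ones 23 had an unadjusted p under 0.05 and 18 had all KO above all WT libraries, against 2.99% and 1.07% of all genes. The 18 were 11 subunits of complex I (Ndufa1, Ndufa2, Ndufa3, Ndufa5, Ndufa7, Ndufa13, Ndufb3, Ndufb4, Ndufb5, Ndufb11 and Ndufc1), 3 of complex III (Uqcrh, Uqcrq and Uqcr11), 3 of complex IV (Cox7a2, Cox7b and Cox7c) and Atp5j2 of the ATP synthase. The summed level was 19401, 19801, 22867 and 19766 CPM in WT and 22586, 17561, 28122 and 27090 CPM in KO, so KO 3 and KO 4 were highest and KO 2 lowest of all. Same-number medians were 0.26, -0.083, 0.35 and 0.45. The median was 0.10 within numbers 1 and 2, 0.40 within 3 and 4, 0.19 without KO 3, 0.36 without KO 2 and 0.44 without the immunoglobulin- and rRNA-rich libraries. Subunits encoded in the mitochondrion did not form part of this list. For 23 mitochondrially encoded genes the median was 0.24 with all libraries and -0.19 without KO 2. The 37 such genes in the count table summed to 137876 CPM in KO 2, against 20331 to 45795 CPM elsewhere. They include the mitochondrial rRNA genes, so this sum shares reads with the rRNA share of KO 2. With immunoglobulin and rRNA genes taken out the list median was 0.19. Among glycolytic genes 11 lay higher and 13 lower, and Ldhb, a lactate dehydrogenase subunit, was the member of smallest p, with 115, 108, 69.0 and 108 CPM in WT and 59.7, 21.2, 45.8 and 58.4 CPM in KO (log2 fold change -1.11 ± 0.38, no overlap).

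Ribosomal protein genes lay higher for 78 of 82, by a small amount, with a median of 0.23, 18 higher members at an unadjusted p under 0.05 (2.99% of all genes) and 18 with all KO above all WT libraries (1.07% of all genes). Their summed level was 51102, 55382, 53981 and 53920 CPM in WT and 55996, 69793, 59955 and 59909 CPM in KO. Each KO library lay above each WT library, by a narrow margin for KO 1 and with KO 2 the highest. Same-number medians were 0.13, 0.40, 0.16 and 0.17, the median without KO 2 was 0.13 and that without the immunoglobulin- and rRNA-rich libraries 0.18. Rpl13a, a protein of the large subunit, had a log2 fold change of 0.72 ± 0.27 and was highest in KO 2. How reads shared with ribosomal protein pseudogenes were counted is not given, so single values are uncertain. Ribosome biogenesis genes, which make the rRNA and assemble the subunits, lay higher for 35 of 60 (median 0.13), and 30 of 41 translation factors did (median 0.097). Both medians turned within numbers 1 and 2, to -0.15 and -0.12, and stood at 0.23 and 0.22 within numbers 3 and 4. Without KO 3 they were -0.0038 and 0.0056, and without KO 4 they were 0.017 and 0.0046. In ribosome biogenesis the helicase Ddx10 was the member of smallest p and was lower, with 93.2, 86.3, 95.5 and 90.8 CPM in WT and 76.8, 67.2, 59.3 and 76.7 CPM in KO (log2 fold change -0.38 ± 0.15).

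**Figure D4:**
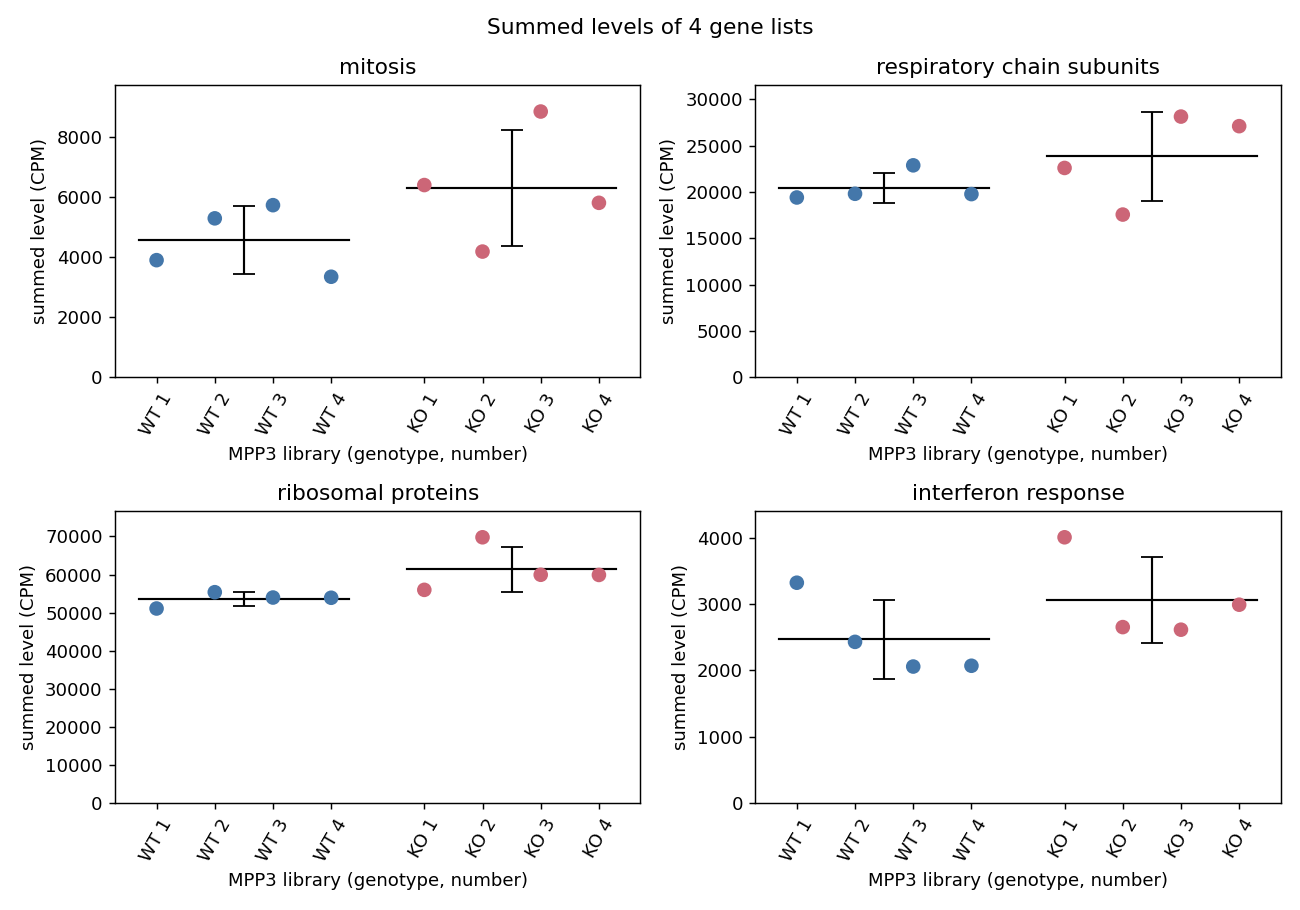
Summed level in CPM of the members of 4 gene lists in each MPP3 library, with the mean (line) and SD (bar) of each genotype, n = 4. KO 2 is the lowest KO library for mitosis and the respiratory chain and the highest for ribosomal proteins, where all KO libraries lie above all WT libraries.

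Interferon response genes lay higher for 35 of 40, with a median of 0.53, and 6 of the higher members had an unadjusted p under 0.05, against 2.99% of all genes. Usp18, the protease that strips ISG15 from proteins and damps the interferon receptor, had 41.7, 28.4, 37.5 and 29.3 CPM in WT and 97.9, 28.7, 63.7 and 111 CPM in KO (log2 fold change 1.14 ± 0.36), with KO 2 at the WT level. Bst2, the tetherin that holds budding virions, had 89.2, 92.8, 107 and 84.8 CPM in WT and 146, 127, 125 and 131 CPM in KO (log2 fold change 0.50 ± 0.17, no overlap). Oas2, a sensor of double-stranded RNA, had 16.1, 13.9, 12.1 and 15.7 CPM in WT and 51.5, 40.7, 16.5 and 24.2 CPM in KO (means 14.4 ± 1.82 and 33.2 ± 15.8, no overlap). Isg15, the ubiquitin-like modifier, went from 6.18 ± 2.44 to 14.5 ± 5.63 CPM, with KO 2 at 8.88 CPM inside the WT range. Same-number medians of the list were 0.39, 0.17, 0.45 and 0.70, all above 0. The median was 0.32 within numbers 1 and 2, 0.56 within 3 and 4, 0.36 without KO 1 and 0.28 without the immunoglobulin- and rRNA-rich libraries. Summed levels overlapped, from 2059 to 3322 CPM in WT and 2614 to 4006 CPM in KO, with WT 1 above all KO libraries but KO 1. Genes of the major histocompatibility complex lay higher for 19 of 24 (median 0.25), but the median was -0.028 without KO 1, the immunoglobulin-rich library. H2-T22 had no overlap between genotypes (45.7 ± 7.07 CPM in WT, 61.7 ± 4.85 in KO).

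The promoters of Isg15 and Bst2 are shown because both genes belong to this list and carry the interferon-stimulated response element in its core form. The motif searched was GAAA followed by any 2 bases and GAAA again, on both strands and with overlapping matches counted, in the 250 bases before each start (RefSeq, GRCm38.p6). It occurred in 2.98% of all 32851 windows and in 16 of 37 windows of the interferon list, which cover 30 genes. The counts were 3 of 60 for mitosis, 2 of 69 for the respiratory chain and 6 of 75 for ribosomal proteins. These shares describe the make-up of the lists and do not bear on the KO effect. Isg15 (chr4:156200819-156201068, minus strand) holds 3 overlapping matches that begin 78 bases before the start, and Bst2 (chr8:71537473-71537722, minus strand) holds 2 that begin 130 bases before it. Capitals mark the matches, and the Sva window above has 0.
Isg15 promoter: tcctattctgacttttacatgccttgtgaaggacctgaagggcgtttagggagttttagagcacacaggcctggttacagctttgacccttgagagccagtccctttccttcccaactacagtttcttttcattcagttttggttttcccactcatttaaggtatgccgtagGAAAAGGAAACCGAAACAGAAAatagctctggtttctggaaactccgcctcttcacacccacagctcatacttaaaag
Bst2 promoter: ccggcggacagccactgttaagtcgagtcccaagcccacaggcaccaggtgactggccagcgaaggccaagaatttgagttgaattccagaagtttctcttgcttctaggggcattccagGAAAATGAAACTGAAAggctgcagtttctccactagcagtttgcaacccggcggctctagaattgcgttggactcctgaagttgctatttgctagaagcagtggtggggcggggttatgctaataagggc

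Genes of the unfolded protein response, the programme that expands folding capacity in the endoplasmic reticulum, lay higher for 20 of 25 with a median of 0.28. The value rested in part on KO 1, where Xbp1 stood at 1467 CPM against 58.8 to 232 CPM elsewhere and Edem1 at 312 CPM against 23.1 to 48.5 CPM, and the median was 0.073 without it. Creld2, another member, had 71.9 and 75.9 CPM in KO 3 and KO 4 against 30.2 to 51.6 CPM in WT. Whether the cells that gave the immunoglobulin reads in KO 1 also gave these values was not tested. Proteasome genes lay higher for 28 of 34, with a median of 0.082 and opposite within-number medians, -0.29 within numbers 1 and 2 and 0.35 within 3 and 4.

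Lists of early and lymphoid-primed progenitors had small medians that moved with single libraries. Of 28 lymphoid priming genes 18 lay lower, with a median of -0.20, and of 21 stem cell surface and marker genes 14 did, with a median of -0.17. The medians were -0.11 without KO 4 and -0.018 without WT 1, respectively. Of 22 stem cell regulators 15 lay higher, with a median of 0.040 that was -0.30 without KO 2. Flt3, the receptor that supports lymphoid-primed progenitors, had 899, 645, 747 and 722 CPM in KO 1 to 4, all under the WT values given above (log2 fold change -0.53 ± 1.05, edgeR adjusted p = 1). Its spread over all populations entered that fit, and in MPP2 it ran from 4.81 to 591 CPM. Cd34, a sialomucin of progenitors, had 1331, 1443, 1377 and 1482 CPM in WT and 1055, 737, 1211 and 1310 CPM in KO (log2 fold change -0.39 ± 0.50, no overlap). Flt3 and Cd34 were chosen after their values were seen. Rhoh, a GTPase-deficient protein of lymphoid cells, had 153 ± 30.4 CPM in WT and 109 ± 14.8 in KO (log2 fold change -0.48 ± 0.18). Emcn, a sialomucin of stem cells and endothelium, had 50.3, 43.2, 19.7 and 33.6 CPM in WT and 16.7, 19.1, 12.8 and 11.9 CPM in KO (log2 fold change -1.28 ± 0.50, no overlap), and Pecam1 had 99.2 ± 13.1 CPM in WT and 64.6 ± 6.19 in KO, also without overlap. Of the 15 stromal and endothelial markers tested, 7 lay higher and 8 lower. All 17 in the list summed to 160 to 208 CPM in WT and 101 to 157 CPM in KO.

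Meis1, the homeobox partner of HoxA proteins in stem and progenitor cells, had 316, 235, 168 and 264 CPM in WT and 202, 243, 139 and 161 CPM in KO (log2 fold change -0.40 ± 0.20). WT 2 and WT 3 lay inside the KO range, and the KO libraries at 202 and 243 CPM lay inside the WT range. Stem cell regulators as a list were highest in KO 2, at 3842 CPM against 1717 to 2385 CPM in the others, and Hlf there stood at 565 CPM against 81.7 to 199.8 CPM.

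Granulocyte and monocyte genes showed no common direction. Of 29 effectors 16 lay higher and 13 lower, and the libraries of each genotype differed widely. Mpo, the peroxidase of neutrophil granules, ran from 584 to 3294 CPM in WT and from 253 to 3301 CPM in KO, and Elane, neutrophil elastase, from 0.350 to 736 CPM in WT and from 0.171 to 303 CPM in KO. Both were chosen after their values were seen. Of 16 myeloid transcription factors 6 lay higher and 10 lower. Spi1, encoding PU.1, had 229 ± 38.8 CPM in WT and 188 ± 82.3 in KO, and Cebpa, the factor of granulocyte commitment, 7.66 ± 3.47 and 11.3 ± 3.80. Neutrophil markers lay lower for 15 of 16, a direction set by WT 1, since the median was -4.28 with it and 0.13 without it. In the megakaryocyte-erythroid list KO 3 set the values of Car1 (575 CPM there, at most 6.22 CPM elsewhere) and Rhd (28.5 and at most 0.675 CPM).

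Of 32 cytokine receptors 22 lay lower (median -0.090), of 36 genes of TNF and NF-kB signalling 26 did (median -0.098) and of 31 JAK-STAT genes 19 did (median -0.055). Within numbers 1 and 2 the medians were 0.13, -0.011 and 0.096, and within numbers 3 and 4 they were -0.28, -0.23 and -0.17. The JAK-STAT median was -0.011 without KO 3, and that of TNF and NF-kB -0.041 without WT 4. Stat3 had 144, 168, 171 and 178 CPM in WT and 133, 131, 104 and 143 CPM in KO (log2 fold change -0.37 ± 0.17), and Stat4 had 105, 90.2, 86.3 and 85.4 CPM in WT and 85.3, 58.9, 68.6 and 57.7 CPM in KO (log2 fold change -0.44 ± 0.21). In both the highest KO library fell just under the lowest WT library. Ccl3, a chemokine gene of the NF-kB list, had 109, 72.3, 27.3 and 90.3 CPM in WT and 45.0, 27.7, 15.1 and 12.6 CPM in KO (log2 fold change -1.57 ± 0.85), with WT 3 inside the KO range.

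Subunits of the complexes found with PHF6 were evenly split, 10 NuRD and PAF1 genes higher and 10 lower with a median of 0.013. Chd4, the NuRD helicase, had 136 ± 27.8 CPM in WT and 139 ± 67.3 in KO, and Rtf1, linked to PAF1, had 64.0 ± 3.12 and 88.1 ± 29.0, with KO 2 at 131 CPM. Of 32 Polycomb genes 19 lay higher (median 0.13), a median that was -0.15 without KO 2. Rnf2, the ubiquitin ligase of Polycomb complex 1, had 176 ± 13.4 CPM in WT and 131 ± 31.1 in KO.

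**Figure D5:**
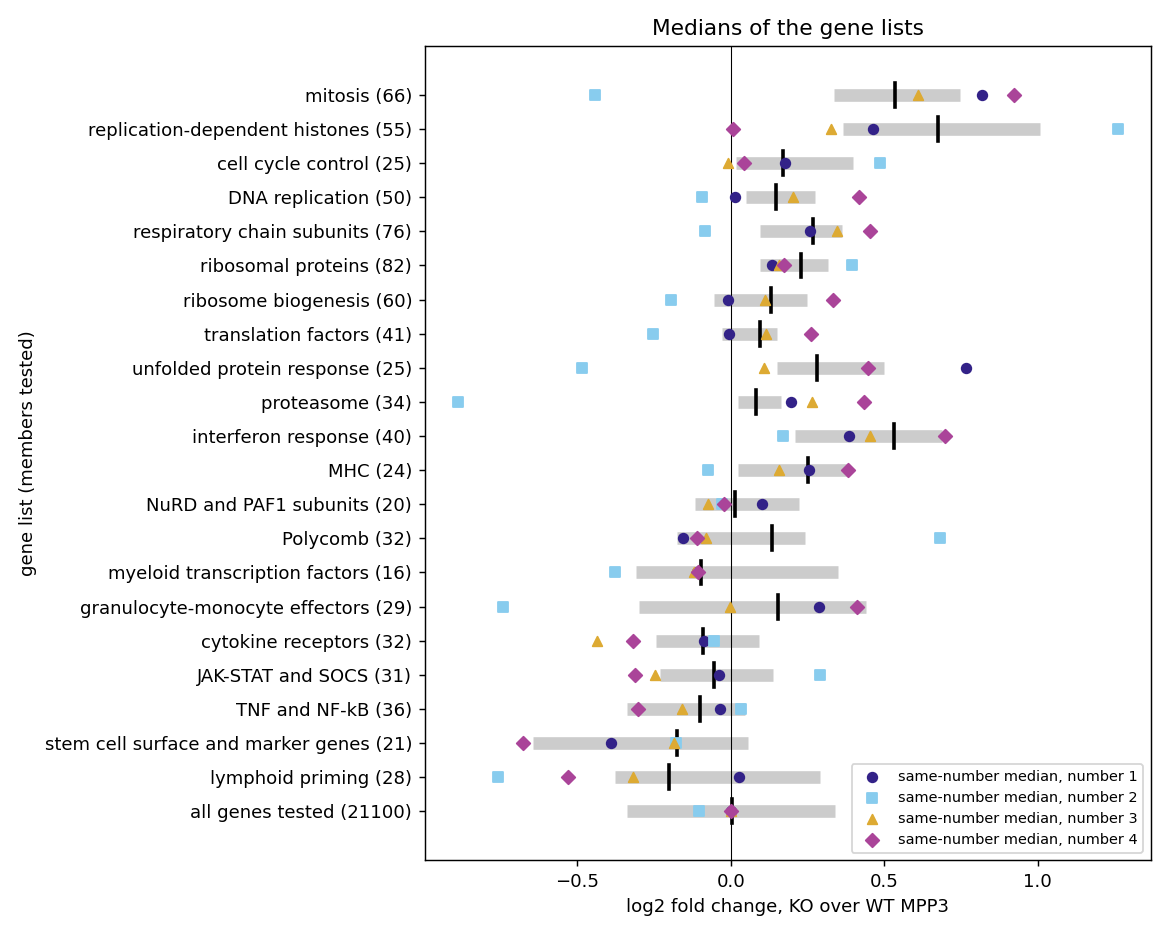
Log2 fold change of KO over WT MPP3 in 21 gene lists and over all genes, with the number of members tested in brackets. Black bars are list medians, grey bars the interquartile range over members, and symbols the median of the same-number log2 ratio for numbers 1 to 4, which lies below 0 for number 2 in mitosis and the respiratory chain and above 0 for all 4 numbers in the interferon and ribosomal protein lists.

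The KO effect in MPP3 was set against that in MPP2 and LT-HSC by interaction contrasts in the same edgeR fit. No gene passed in either contrast. Libraries of different populations may share mice, which this fit did not take into account. For MPP3 against MPP2, 943 of 21100 genes had an unadjusted p under 0.05 (4.47%), and DESeq2 called 15 and limma voom 0. For MPP3 against LT-HSC, 521 genes did (2.47%), and DESeq2 called 25 and limma voom 0. WT LT-HSC had only 2 libraries, on which all fold changes in LT-HSC rest. The effect on Phf6 differed by -0.31 ± 0.61 from that in MPP2 and by 0.11 ± 0.71 from that in LT-HSC on the log2 scale. For Sva no difference of fold changes is given, since WT MPP2 and WT LT-HSC were at 0 counts. Its KO level was 6.37 ± 2.85 CPM in MPP3, 4.10 ± 2.62 CPM in MPP2 (n = 4) and 5.12 ± 4.28 CPM in LT-HSC (n = 3). Alox5, the lipoxygenase of leukotriene synthesis, had the smallest p of the genes named against MPP2 (edgeR adjusted p = 1). DESeq2 called Alox5 in this contrast and in MPP3 itself (adjusted p = 0.0226 in MPP3). It had 24, 41, 325 and 96 counts in WT MPP3 and 0, 2, 0 and 0 counts in KO MPP3, so the groups did not overlap, whereas in MPP2 its fitted log2 fold change was 3.09 ± 1.44. Champ1, a zinc finger protein of chromosome alignment, had a mean of 52.6 ± 13.1 CPM in WT MPP3 and 36.1 ± 2.86 CPM in KO without overlap, and its log2 fold change was -0.54 in MPP3 and 0.71 ± 0.23 in MPP2. Against LT-HSC the genes named were Cep72, Cebpa and Hcst. DESeq2 called Cep72 and Cebpa in this contrast, but not Hcst. Cebpa had a log2 fold change of -3.32 ± 0.79 in LT-HSC and 0.56 ± 0.54 in MPP3, a difference of 3.89 ± 0.95 (edgeR adjusted p = 1). Median log2 fold changes of the lists in MPP2, with its own libraries, were 0.13 for mitosis, 0.011 for the respiratory chain, -0.073 for ribosomal proteins and 0.26 for interferon response, and in LT-HSC 0.25, 0.25, 0.10 and 0.30. These list differences were not tested, and 1 KO MPP2 library had 48.0% of its counts on immunoglobulin genes.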

How the data were processed

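The authors deposited 1 table of raw read counts per gene for 21 libraries, made from Nextera XT libraries per the labels' protocols. The submitters' processing notes name STAR and mm10. The sources used here do not give the STAR version, counting program, annotation release or strand setting. Coordinates and symbols are from GENCODE M21 (mm10), which held 54409 of the 54446 gene IDs.

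Counts were tested with edgeR 4.0.16 in R 4.3.3 (quasi-likelihood, robust, TMM) in 1 fit of all 21 libraries with 6 group means, after filterByExpr with a minimum count of 10 left 21100 genes. P-values were adjusted by Benjamini-Hochberg over all genes, with a threshold of 0.05. SEs were derived from the F statistic as |log2 fold change| / √F, and same-number ratios add 2 counts as a prior. Scripts were checked on simulated data. Alternatives used DESeq2 1.42.0, limma 3.58.1 voom, other filters, factors and subsets. With 18892723 to 29924111 counts per MPP3 library, 3 counts limit detection at 0.104 to 0.171 CPM.

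Named genes were Phf6, the genes past the threshold, the 12 higher and 12 lower genes of smallest p whose genotypes did not overlap and whose higher mean reached 10 CPM (passing over predicted models, pseudogenes, immunoglobulin segments, Xist and Y-linked genes), up to 4 members of smallest p and at least 5 CPM per list, the sort markers, the neighbours of Phf6 and Sva and the 3 genes of smallest p per interaction contrast. Not all are printed, and some results are not reported here. The members and the 50 lists were chosen with earlier results of these data known.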

Additional observations from a re-analysis of the deposited data

Results flagged for a closer look

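Of 148 groups of 4 libraries examined, 17 (11.5%) held 1 library far from the other 3 by Dixon's criterion. For independent, normally distributed values chance meets it in about 1 in 20 groups. These groups share libraries and genes, so the share of 11.5% cannot be set against that rate.

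In KO 1, summed levels stood at 109526 CPM for lymphoid priming genes, a list that holds Ighm, at 265912 CPM for B cell markers and at 347975 CPM for immunoglobulin genes. In KO 2 they stood at 3842 CPM for stem cell regulators, 627 CPM for the BCL2 family, 2371 CPM for adhesion and homing genes, 43.3 CPM for macrophage and dendritic cell markers and 137876 CPM for mitochondrially encoded genes. In KO 3 erythroid markers stood at 113 CPM and Eya2 at 8.70 CPM. In WT 1 neutrophil markers stood at 2013 CPM. In WT 3 the sums were 9488 CPM for DNA replication, 3320 CPM for tRNA synthetases, 22867 CPM for the respiratory chain and 9822 CPM for the proteasome, each above the other WT libraries, with Slc6a15 at 8.95 CPM and Muc13 at 175 CPM.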

How the results depend on the processing

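The number of genes called, 2 in the fit described, was 1 with only the 8 MPP3 libraries fitted, 1 without both libraries numbered 2, 1 within numbers 1 and 2, 0 within numbers 3 and 4, 0 without the immunoglobulin- or rRNA-rich libraries (1970 genes at an unadjusted p under 0.05 there), 7 by limma voom and 36 by DESeq2, and 0 to 2 when 1 library was left out. The interaction contrasts gave 0 under every edgeR setting and by limma voom, and 15 (MPP2) and 25 (LT-HSC) by DESeq2. The Phf6 log2 fold change was -3.84 with the 8 libraries, -2.88 within numbers 3 and 4, -3.36 without the immunoglobulin- or rRNA-rich libraries, where the call was lost, and -4.11 to -3.55 with 1 library left out. For Sva it was 8.16 without both libraries numbered 2, 7.55 within numbers 1 and 2, 9.97 within numbers 3 and 4, 7.65 without the immunoglobulin- or rRNA-rich libraries, where the call was lost, and 7.74 to 8.59 with 1 library left out. The cause was not tested. Of 1152 list medians under 24 settings 102 moved by more than the spread between same-number medians and 155 changed sign.

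Whether the replicate numbers mark pairs was not settled, and the fit described has no block. Deviations of same-numbered KO and WT MPP3 libraries correlated at 0.116, 0.141, 0.136 and 0.0807 over all genes tested and at 0.337, 0.224, 0.331 and 0.167 over 12060 genes above 2 CPM. In the latter set KO 1, KO 2 and KO 3 correlated best with their own number and KO 4 with WT 3 (0.280). With the replicate number as a block 5 genes were called, Phf6 (edgeR adjusted p = 0.0227), Sva (0.0313) and 3 immunoglobulin genes. With the block and only the 8 MPP3 libraries 0 were (660 at an unadjusted p under 0.05), with log2 fold changes of -3.92 for Phf6 and 8.18 for Sva.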
